A study of Mus musculus with 10 samples.

Results

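The genes described here encode 9 nuclear receptors with established roles in the liver: Nr1i2 (PXR), Nr1i3 (CAR), Nr1h4 (FXR), Nr0b2 (SHP), Nr1h3 (LXR alpha), Nr5a2 (LRH-1), Rxra (RXR alpha), Rora (ROR alpha) and Thrb (TR beta). They were listed by name, with earlier results of these data known, and no threshold on their values was used. All 9 were among the 14098 genes tested, out of 55401 genes in the count table. PolyA RNA was sequenced from the livers of 10 female mouse fetuses at E18.5, shortly before birth. In the Mir483Pat-KO group (5 fetuses) the paternal copy of the microRNA gene Mir483 was deleted, and the control group held 5 WT littermates. The deletion was made in C57BL/6N embryonic stem cells, cells of 2 independent clones were injected to make the chimeras and the colony was kept by crosses to C57BL/6J. It is constitutive, so that every cell type of the fetus carries it and not the hepatocyte alone.

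Nuclear receptors are transcription factors that bind small lipophilic ligands and switch genes on or off from short DNA elements. CAR and PXR sense drugs and other foreign compounds, FXR senses bile acids, LXR alpha senses oxysterols and TR beta binds thyroid hormone. These receptors work mostly as heterodimers with RXR alpha. LRH-1 and ROR alpha bind DNA as monomers, and SHP has no DNA-binding domain and represses the activity of other receptors, among them LRH-1. In the fetal liver, hepatocytes that will need these receptors after birth lie among blood-forming cells, most of them erythroid.

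Mir483 lies inside Igf2 and gives rise to a pair of mature microRNAs, which are shown because the deletion removed them. Their sequences come from RefSeq (GRCm38.p6, minus strand), at chr7:142654932-142654952 for miR-483-3p and chr7:142654968-142654989 for miR-483-5p. Capitals mark the seed, bases 2 to 8.
miR-483-3p: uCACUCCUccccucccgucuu
miR-483-5p: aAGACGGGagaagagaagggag

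The 7 bases complementary to the miR-483-3p seed occurred in the longest annotated 3′ UTR of Nr1i3 and of Rora, at 1 place each, and in none of the other 7 receptor genes. Of 12869 tested genes with an annotated 3′ UTR, 1618 (12.6%) held such a site. No receptor gene held the match to the miR-483-5p seed, which 3.27% of these genes had. The stretches below are the plus strand of GRCm38 at chr1:171219062-171219090 and chr9:69379984-69380012, with the seed match in capitals.
Nr1i3: ttcccgagggaAGGAGTGgaagactgagg
Rora: tccagaattgaAGGAGTGtctggtgctgt
The Nr1i3 site lies in the 3′ UTR of 1 of the gene's 4 coding transcripts, Nr1i3-208, the longest of them at 2980 bases. The Rora site lies in 1 of 2 coding transcripts, Rora-201. Such a match is a description of the letters and not evidence that the microRNA acts there.

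The Mir483 gene itself had 11, 10, 22, 21 and 12 counts in the WT libraries and 0 counts in each of the 5 Mir483Pat-KO libraries, where a count of 0 allows up to 3 counts per library. The libraries held 10831350 to 14765880 counts, and levels are given as counts per 1000000 counts of the library after TMM scaling (CPM). Groups were compared with edgeR's quasi-likelihood test, with Benjamini-Hochberg adjustment over all 14098 genes, and a gene passed at an adjusted p under 0.05. By that rule 5.19% of all genes passed, 2.76% lower and 2.43% higher in Mir483Pat-KO. The samples' identification numbers formed 2 separate ranges, with 4 WT and 2 Mir483Pat-KO libraries in the lower range and 1 WT and 3 Mir483Pat-KO libraries in the upper. What the ranges stand for is not stated. All WT libraries had lower index numbers than all Mir483Pat-KO libraries, and index order and genotype cannot be told apart.

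Of the 9 receptor genes, 2 passed the test, Nr1i3 and Nr0b2. Both were lower in Mir483Pat-KO and none was higher, beside 2.76% of all genes lower and 2.43% higher. In 4 of the 9, all lower, the unadjusted p was under 0.05, as in 3128 of the 14098 genes tested in either direction, and DESeq2 and limma-voom made 0 calls in the higher direction too. The log2 fold changes (Mir483Pat-KO over WT) ran from −1.68 to 0.17 with a median of −0.16, beside a median of 0.004 over all genes tested, and 6 of the 9 were below 0. Only Nr1i3 had groups that did not overlap, and among all genes 3.26% had every Mir483Pat-KO library below every WT library.

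**Figure D1:**
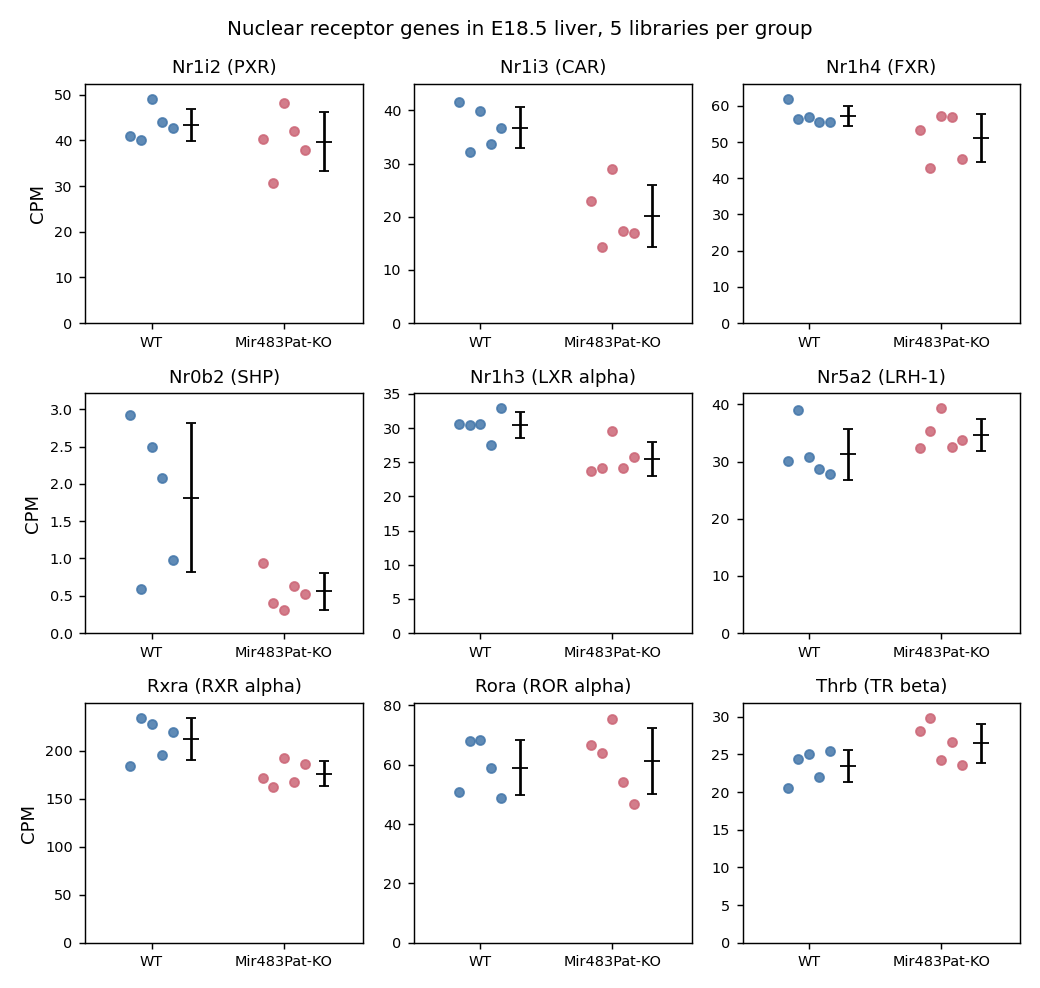
Level of each of the 9 receptor genes in CPM (linear axes from 0) in the 5 WT and 5 Mir483Pat-KO libraries. Points are libraries and bars give the mean ± SD. The Nr1i3 groups lie apart, at 32.2 to 41.5 in WT and 14.4 to 29.0 in Mir483Pat-KO, whereas the other 8 genes overlap.

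Among the xenobiotic sensors, Nr1i3 fell to 54.7% of its WT level while Nr1i2 did not pass the test. Nr1i3 (chr1:171213970-171220701, plus strand), which encodes CAR, measured 41.5, 32.2, 39.8, 33.7 and 36.6 CPM in WT replicates 1 to 5. In Mir483Pat-KO replicates 1 to 5 it measured 22.9, 14.4, 29.0, 17.3 and 16.9 CPM. Every Mir483Pat-KO library lay below every WT library, with replicate 3 the nearest to WT. The WT mean was 36.8 ± 3.92 CPM and the Mir483Pat-KO mean 20.1 ± 5.83 CPM (SD, n = 5 each), a 1.83-fold difference. The log2 fold change was −0.87 ± 0.15 (SE), with an adjusted p of 0.00455 (edgeR). These values rest on 182 to 556 counts per library.

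The separation of Nr1i3 was present in both ranges of identification numbers. In the lower range WT libraries held 32.2 to 41.5 CPM and Mir483Pat-KO libraries 14.4 to 22.9 CPM, and in the upper range the lone WT library held 36.6 CPM beside 16.9 to 29.0 CPM. With the lower range alone the log2 fold change was −0.98 and the adjusted p 0.0527 (edgeR), in a fit where 23 genes (0.159% of those tested) passed.

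Much of Nr1i3 lies opposite another gene. Its exons share 74.9% of their bases with exons of Tomm40l, a gene on the other strand that encodes a subunit of the mitochondrial import pore, and 63.4% to 85% in its single transcripts. The kit marks strand, but the strand setting of the counting is not stated. Tomm40l had WT and Mir483Pat-KO means of 17.5 ± 2 and 18.4 ± 1.68 CPM (SD), with overlapping groups, a log2 fold change of 0.08 and an adjusted p of 0.695 (edgeR). The ratio of Nr1i3 to Tomm40l spanned 1.9 to 2.38 in WT against 0.82 to 1.6 in Mir483Pat-KO, and the groups did not overlap in the ratio either. Of the other receptor genes, Nr1h3 shared 1.35% of its exon bases with Gm13783 on the same strand and Rora 0.627% with Gm15511 on the other, and the remaining 6 shared none. Ratios here were chosen after the values were seen and carry no test.

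Nr1i2 (chr16:38248323-38294824, minus strand), which encodes PXR, measured 40.9, 40.0, 49.0, 44.0 and 42.8 CPM in WT and 40.2, 30.6, 48.1, 42.0 and 37.8 CPM in Mir483Pat-KO. The groups overlapped, and 2 of the 5 Mir483Pat-KO values were under the lowest WT value. Its log2 fold change was −0.13, with a 95% interval of −0.34 to 0.09 and an adjusted p of 0.488 (edgeR). The Nr1i3 to Nr1i2 ratio had a median of 0.812 in WT (range 0.767 to 1.01) and 0.472 in Mir483Pat-KO (0.412 to 0.602).

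Markers of other cell types and of the hepatocyte moved with genotype, and the sum of each list is given here because it stands beside every receptor value. The summed level of 10 hepatocyte markers was 223228 to 250389 CPM in WT and 200424 to 230792 CPM in Mir483Pat-KO, 89.5% of the WT mean (two-sided exact permutation test, p = 0.0238). The sum of 10 erythroid markers was 16112 to 20735 CPM in WT and 18852 to 26790 CPM in Mir483Pat-KO, 133% of the WT mean (p = 0.0238, same exact test). By the edgeR test 2 of the 10 hepatocyte markers passed as lower and 3 of the 10 erythroid markers as higher, beside 2.76% and 2.43% of all genes, and 2 of the 9 macrophage markers passed as lower. None of the 7 mesenchymal markers passed, but all 7 had log2 fold changes below 0, with a median of −0.48, and in 5 of them the unadjusted p was under 0.05. Over all 14098 genes 6924 were below 0, and 3128 had an unadjusted p under 0.05 in either direction. The sums of the other 7 lists (macrophage, granulocyte, megakaryocyte, endothelial, mesenchymal, cholangiocyte and B-lymphoid) gave p from 0.0794 to 0.921, where 0.00794 is the smallest p the exact test allows, all unadjusted over the 9 lists. No marker was at 0 in all libraries. Fewer cells of a type and less RNA per cell cannot be told apart in whole liver, and the part of cell makeup in the receptor values was not tested. Against the hepatocyte marker sum at 89.5%, Nr1i3 stood at 54.7% of WT, Nr1i2 at 91.7% and Rxra at 83.0%. That sum mostly follows its most abundant genes. The log2 fold changes of the 10 hepatocyte markers ran from −0.65 to 0.03, with a median of −0.14.

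**Figure D2:**
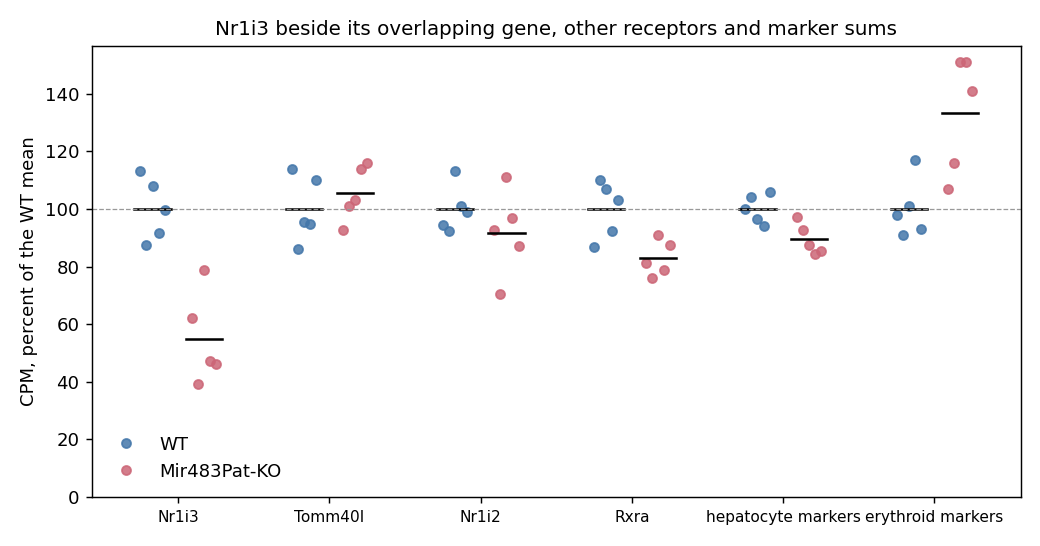
Level in each library as a percent of the WT mean (linear axis from 0) for Nr1i3, the overlapping gene Tomm40l, the receptor genes Nr1i2 and Rxra, and the summed hepatocyte and erythroid markers. Points are libraries and bars are group means. Nr1i3 fell to a mean of 54.7% in Mir483Pat-KO, beside 89.5% for the hepatocyte markers and 133% for the erythroid markers.

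Of the 3 receptor genes best known from bile acid control, Nr0b2 was lower and neither Nr1h4 nor Nr5a2 passed the test. Nr0b2 (chr4:133553376-133556536, plus strand), which encodes the repressor SHP and is itself a classical target of FXR and LRH-1, was the scarcest of the 9. It measured 2.93, 0.586, 2.5, 2.08 and 0.986 CPM in WT, from 33, 7, 35, 27 and 14 counts. In Mir483Pat-KO it measured 0.937, 0.397, 0.306, 0.632 and 0.527 CPM, from 12, 5, 4, 7 and 8 counts. WT replicates 2 and 5 lay far below the other WT libraries, and replicate 2 overlapped the Mir483Pat-KO group. The means were 1.82 ± 0.998 and 0.56 ± 0.245 CPM (SD, n = 5 per group), a 3.21-fold difference, with a log2 fold change of −1.68 ± 0.42 (SE) and an adjusted p of 0.031 (edgeR).

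The Nr0b2 call was lost without WT replicates 1, 3 or 4 or Mir483Pat-KO replicates 2, 3, 4 or 5, with an adjusted p of 0.0556 to 0.0728 (edgeR), under limma-voom (0.0683) and with the identification number range as a covariate (0.0622, edgeR). Over the alternatives that gave an adjusted p, the log2 fold change ran from −1.95 to −1.39 and the adjusted p from 0.000676 to 0.276.

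The Nr0b2 promoter is shown because the factors taken to act on it, Nr1h4 and Nr5a2, are measured here as well. It spans 250 bases before to 50 bases after the start of transcription, from RefSeq (GRCm38.p6, plus strand, chr4:133553126-133553425). Capitals mark TCAAGG, the core of the LRH-1 element, which was looked for after the sequence had been seen.
Nr0b2: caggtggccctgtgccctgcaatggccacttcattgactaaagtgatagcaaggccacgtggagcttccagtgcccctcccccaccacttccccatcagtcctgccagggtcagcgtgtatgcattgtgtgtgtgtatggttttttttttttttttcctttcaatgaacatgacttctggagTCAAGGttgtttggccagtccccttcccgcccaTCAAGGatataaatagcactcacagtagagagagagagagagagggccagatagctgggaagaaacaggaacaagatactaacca
The core occurred at 2 places, starting 68 and 35 bases before the start of transcription. Among the other receptor genes only Thrb held it, at 1 place in 1 of its promoters, with both strands searched. On either strand, 14.4% of 32851 promoters of this length held at least 1 TCAAGG. The common receptor hexamer AGGTCA, found in 16.3% of promoters, was not in this window. The longer monomer element TCAAGGTCA, which contains both of these, was in 0.423% of promoters and the inverted repeat of AGGTCA spaced by 1 base, the element of FXR with RXR alpha, in 0.00913%, and neither was in a promoter of the 9 receptor genes. AGGTCA was in promoters of Nr1h4, Nr5a2, Rxra and Thrb and in none of the other 5 genes. These matches are descriptions of the letters.

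Nr1h4 (chr10:89454234-89533585, minus strand), which encodes the bile acid sensor FXR, measured 62, 56.3, 57, 55.4 and 55.5 CPM in WT and 53.4, 42.8, 57.3, 56.8 and 45.3 CPM in Mir483Pat-KO. Replicates 2 and 5 of Mir483Pat-KO were low and the other 3 lay within or near the WT range. The log2 fold change was −0.16 (95% interval −0.34 to 0.01) with an adjusted p of 0.268 (edgeR). Relative to Nr1h4, Nr0b2 had a median ratio of 0.0375 in WT (0.0104 to 0.0473) and 0.0111 in Mir483Pat-KO (0.00535 to 0.0175), with overlapping ranges.

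Nr5a2 (chr1:136842571-136960448, minus strand) encodes LRH-1, which drives genes of bile acid and cholesterol handling. Its levels were 30.1, 39.0, 30.8, 28.7 and 27.8 CPM in WT and 32.4, 35.4, 39.3, 32.6 and 33.7 CPM in Mir483Pat-KO. All Mir483Pat-KO libraries lay above the WT libraries other than replicate 2, which was nearly as high as the highest Mir483Pat-KO library. The log2 fold change was 0.15 (95% interval −0.05 to 0.35) with an adjusted p of 0.371 (edgeR). Without WT replicate 2 it was 0.24, with an adjusted p of 0.0898 (edgeR).

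The shared partner Rxra and the oxysterol receptor gene Nr1h3 were lower in most Mir483Pat-KO libraries, at 83.0% and 83.6% of the WT means, but neither passed the test. Rxra (chr2:27676440-27762957, plus strand) measured 184, 234, 228, 196 and 220 CPM in WT and 172, 162, 193, 168 and 186 CPM in Mir483Pat-KO. The overlap came from WT replicate 1, which lay below replicates 3 and 5 of Mir483Pat-KO. The log2 fold change was −0.27 ± 0.08 (SE) with an adjusted p of 0.0579 (edgeR), and without WT replicate 1 it was −0.32 with an adjusted p of 0.0286.

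Nr1h3 (chr2:91184061-91202834, minus strand), which encodes LXR alpha, the inducer of sterol export and fatty acid synthesis genes, measured 30.6, 30.5, 30.6, 27.5 and 32.9 CPM in WT. In Mir483Pat-KO it measured 23.7, 24.1, 29.6, 24.2 and 25.7 CPM, and 4 of these 5 libraries lay below all WT libraries. Replicate 3 lay within the WT range. Its log2 fold change was −0.26 ± 0.08 (SE) with an adjusted p of 0.078 (edgeR), and without Mir483Pat-KO replicate 3 it was −0.33 with an adjusted p of 0.0339.

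Both genes passed under DESeq2, at an adjusted p of 0.0172 for Rxra and 0.0468 for Nr1h3, and with the identification number range as a covariate, at 0.033 and 0.0291 (edgeR). After removal of GC content and length trends their log2 fold changes shrank to −0.16 and −0.16, with adjusted p of 0.284 and 0.298 (edgeR). Across 14089 genes the log2 fold change fell with GC content (Spearman correlation −0.439, a description over genes, which are not independent). Of the 9 receptor genes, the 3 with the most GC in their exons were Nr0b2, Rxra and Nr1h3, at the 90.8, 88.1 and 87.3 percentiles of GC content among all genes. Nr1i3 stood at the 68.5 percentile, and its log2 fold change was −0.80 with an adjusted p of 0.00538 (edgeR) once these trends were removed. In the same fit Nr0b2 still passed, with a log2 fold change of −1.60 and an adjusted p of 0.0388 (edgeR). The part of GC content in the receptor values was not tested.

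The remaining pair, Thrb and Rora, did not pass. Thrb (chr14:17660261-18038090, plus strand), the main thyroid hormone receptor gene of the adult liver, measured 20.5, 24.4, 25, 22.0 and 25.4 CPM in WT and 28.1, 29.8, 24.3, 26.6 and 23.6 CPM in Mir483Pat-KO. In 3 of 5 Mir483Pat-KO libraries it was above all WT libraries. The log2 fold change was 0.17 (95% interval −0.02 to 0.36) with an adjusted p of 0.275 (edgeR). Rora (chr9:68653786-69388246, plus strand), whose product activates clock and lipid genes, measured 50.7, 68.0, 68.4, 58.8 and 48.9 CPM in WT and 66.5, 63.8, 75.4, 54.3 and 46.6 CPM in Mir483Pat-KO. The groups overlapped, with 1 Mir483Pat-KO library below and 1 above all WT libraries. Its log2 fold change was 0.06 (95% interval −0.20 to 0.32) with an adjusted p of 0.829 (edgeR), and it turned negative under 3 alternatives.

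**Figure D3:**
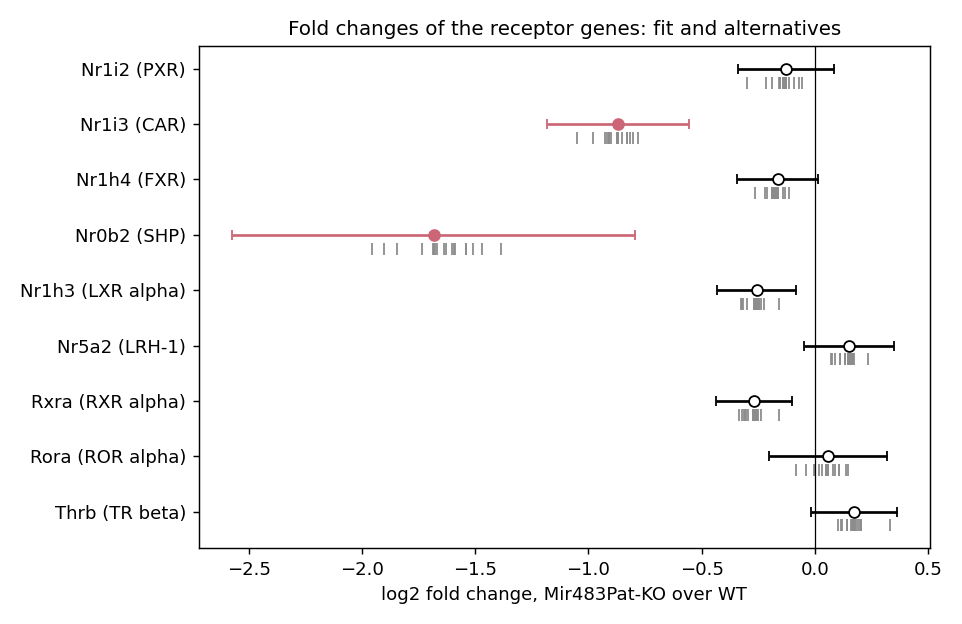
Log2 fold change (Mir483Pat-KO over WT) of the 9 receptor genes. Large points are the edgeR values with 95% intervals, filled where the adjusted p was under 0.05, and grey ticks are the values under the alternatives. Ticks of Nr1i3 run from −1.05 to −0.78 and those of Nr0b2 from −1.95 to −1.39, and the ticks of Rora lie on both sides of 0.

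Divided by the length of all annotated exons, the WT levels ordered as Rxra, Nr1h4, Nr1i2, Nr1h3, Nr1i3, Nr5a2, Rora, Thrb and Nr0b2. The levels per kilobase were 38.9 ± 3.92 CPM for Rxra, 24.9 ± 1.19 for Nr1h4, 17 ± 1.37 for Nr1i2 and 12.1 ± 0.766 for Nr1h3 (SD, n = 5). Lower down were Nr1i3 at 8.33 ± 0.888 CPM per kilobase, Nr5a2 at 5.3 ± 0.754, Rora at 4.51 ± 0.706, Thrb at 3.17 ± 0.285 and Nr0b2 at 1.61 ± 0.882. The WT ranges of neighbours in this order did not overlap, except for Nr5a2 and Rora. With the longest coding transcript as the length the order was the same, and the ranges of Nr1i2 and Nr1h3 overlapped too.

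In Mir483Pat-KO the order changed at Nr1i3, which had 4.55 ± 1.32 CPM per kilobase of exon and stood at rank 7 by its mean in place of rank 5. Nr1i3 was above Nr5a2 in 5 of 5 WT libraries and in 0 of 5 Mir483Pat-KO libraries. It was above Rora in 5 of 5 WT and in 3 of 5 Mir483Pat-KO libraries, and the Mir483Pat-KO means of these genes were 4.55 ± 1.32 and 4.69 ± 0.854 CPM per kilobase, so that their order there did not hold beyond the spread. On the longest coding transcript it was above Nr5a2 in 2 of 5 Mir483Pat-KO libraries and ranked 6. Exons of Tomm40l on the other strand cover 74.9% of the Nr1i3 exon bases, and the strand setting of the counting is not stated. How many of these bases could collect Nr1i3 reads is therefore not known. Its levels per kilobase and its ranks in both groups are uncertain to that extent. The order carries no test.

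Among the 9 genes, the closest companions over libraries were Nr1i3, Nr1i2 and Nr1h4. After removal of the group means the Pearson correlation of log2 CPM over the 10 libraries was 0.772 for Nr1i2 and Nr1i3, 0.74 for Nr1i3 and Nr1h4 and 0.734 for Nr1i2 and Nr1h4. All values of a library share its depth and cell makeup, so that these are descriptions. Of 9717 genes with a mean log2 CPM of at least 3, those most like Nr1i3 by this measure were Shisa5 (Pearson 0.942, Spearman 0.939), Tm4sf4 (0.923, 0.818) and CT010467.1 (0.922, 0.867). Without the 2 libraries in which Nr1i3 lay farthest from its group mean the Pearson values were 0.871, 0.79 and 0.84. For Nr0b2, whose values rest on 4 to 35 counts, they were Mxd4 (Pearson 0.966, Spearman 0.952), Mfsd11 (0.942, 0.891) and Dnajc16 (0.923, 0.939), and 0.924, 0.908 and 0.899 without its 2 farthest libraries.

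Genes that CAR and PXR induce, which encode enzymes and transporters of drug and bilirubin clearance, passed as lower in 5 of 19 tested and as higher in 0, beside 2.76% and 2.43% of all genes. Their median log2 fold change was −0.30, beside 0.004 over all genes. For this and the following lists, the hepatocyte marker sum at 89.5% of WT and the erythroid marker sum at 133% moved with genotype as well, and their part in the lists was not tested. Ugt1a1, the enzyme that conjugates bilirubin, measured 61.1, 36.3, 79.5, 56.8 and 56.8 CPM in WT and 33.3, 16.3, 25.7, 11.9 and 12.2 CPM in Mir483Pat-KO. The groups did not overlap, and its log2 fold change was −1.55 ± 0.25 (SE, adjusted p = 0.00384, edgeR). Ugt1a1 shares its last exons with the other Ugt1a genes, and how reads in shared exons were counted is not stated.

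Cyp3a25, a drug-oxidising cytochrome, measured 26.6 to 57.5 CPM in WT and 6.66 to 24.5 CPM in Mir483Pat-KO (log2 fold change −1.41 ± 0.29, adjusted p = 0.0138, edgeR). The carboxylesterase gene Ces2a fell from 124 ± 12.9 to 92.7 ± 11.5 CPM (adjusted p = 0.015, edgeR), with 1 Mir483Pat-KO library inside the WT range. Abcb1a, a drug efflux pump, fell from 4.85 ± 0.939 to 3.01 ± 0.281 CPM (adjusted p = 0.0261, edgeR). The fifth gene was Alas1, which encodes the first enzyme of heme synthesis and was named after its values were seen, at 48.5 ± 3.36 and 37.9 ± 4.75 CPM (adjusted p = 0.0273, edgeR). Cyp3a25 and Ces2a belong to families of similar genes, between which reads may have been split.

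Of the textbook reporters of these receptors, Cyp3a11 did not pass and Cyp2b10 could not be tested. Cyp3a11, the standard PXR target, measured 63 to 109 CPM in WT and 59.3 to 80.1 CPM in Mir483Pat-KO (log2 fold change −0.24, adjusted p = 0.249, edgeR). Cyp2b10, the standard CAR target, had 4 counts over all WT libraries and 2 over all Mir483Pat-KO libraries, too few to be tested. The count of lower genes in this list was 3 without Mir483Pat-KO replicate 4 and 8 without a filter on low counts.

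**Figure D4:**
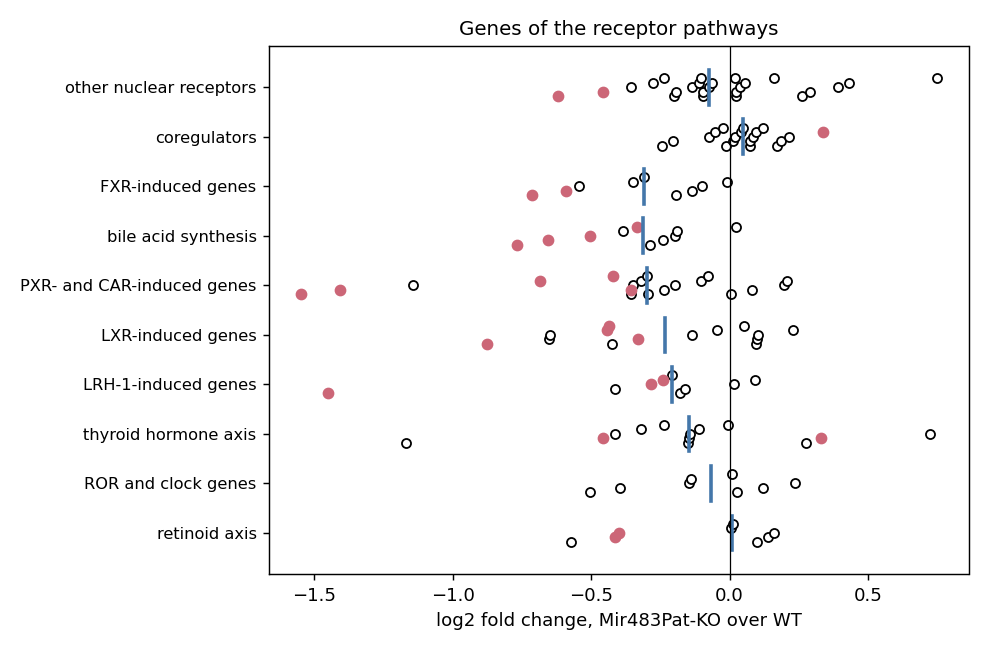
Log2 fold change (Mir483Pat-KO over WT) of the tested genes of the 10 receptor pathway lists. Points are genes, filled where the adjusted p was under 0.05, and blue bars are list medians. Medians lie between −0.31 for bile acid synthesis and 0.05 for the coregulators.

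Genes induced by FXR passed in 2 of 9 tested, both lower, beside 2.76% of all genes. Their median log2 fold change was −0.31 and all 9 values were below 0, as were 6924 of the 14098 genes tested. Abcb11, the bile salt export pump of the hepatocyte, measured 366, 243, 303, 292 and 270 CPM in WT and 226, 186, 166, 169 and 152 CPM in Mir483Pat-KO. Its groups did not overlap (log2 fold change −0.71 ± 0.11, adjusted p = 0.0038, edgeR). Slc27a5, which activates bile acids for conjugation, fell from 93.8 ± 19.6 to 62.2 ± 4.6 CPM (adjusted p = 0.00966, edgeR), with 1 Mir483Pat-KO library inside the WT range. Without Mir483Pat-KO replicate 1 the count was 4.

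Enzymes of bile acid synthesis passed in 4 of 10 tested, all lower, beside 2.76% of all genes, with a median of −0.31. Cyp27a1, which starts the alternative pathway, fell from 60.3 ± 9.64 to 38.2 ± 4.19 CPM with no overlap between the groups (log2 fold change −0.66 ± 0.11, adjusted p = 0.00384, edgeR). Hsd3b7, an enzyme of the sterol ring, fell from 5.53 ± 1.11 to 3.25 ± 0.523 CPM (adjusted p = 0.0185, edgeR). Scp2, which acts in the shortening of the side chain, fell from 269 ± 19.5 to 213 ± 19.7 CPM (adjusted p = 0.0208, edgeR). The hydroxylase gene Cyp39a1 fell from 110 ± 16.4 to 77.7 ± 14.2 CPM (adjusted p = 0.0259, edgeR), with 1 library inside the WT range.

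Cyp7a1, the rate-limiting enzyme of the classical pathway and the gene that SHP and LRH-1 are best known to control, did not pass. It measured 87.9 to 126 CPM in WT and 76.6 to 107 CPM in Mir483Pat-KO (log2 fold change −0.19, adjusted p = 0.324, edgeR). Cyp8b1, which sets the cholic acid share, measured 49.1 to 83.4 CPM and 42.4 to 71.5 CPM (log2 fold change −0.38, adjusted p = 0.135, edgeR). Without Mir483Pat-KO replicate 4 the list count was 1.

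Genes listed as LXR-induced include some that move sterols out of cells and some that make fatty acids. Of 14 tested, 4 passed, all lower, beside 2.76% of all genes, with a median of −0.23. Apoe, the apolipoprotein of sterol transport, measured 4081 to 5387 CPM in WT and 3303 to 3716 CPM in Mir483Pat-KO (log2 fold change −0.33 ± 0.09, adjusted p = 0.035, edgeR). The sterol exporter Abcg5 fell from 3.69 ± 1.13 to 2.01 ± 0.484 CPM (adjusted p = 0.0401, edgeR). Srebf1, the master regulator of lipogenesis, fell from 194 ± 28.2 to 142 ± 24.6 CPM (adjusted p = 0.0408, edgeR) and Acaca, the first committed enzyme of fatty acid synthesis, from 84.9 ± 13.3 to 62.8 ± 11.1 CPM (adjusted p = 0.0455, edgeR), both with overlapping groups. Abca1, the best known LXR target, measured 330 to 447 CPM in WT and 380 to 511 CPM in Mir483Pat-KO (log2 fold change 0.10, adjusted p = 0.599, edgeR). The 4 calls lay close to the threshold, and their number was 0 without WT replicates 4 or 5 or Mir483Pat-KO replicates 2 or 4, 1 without Mir483Pat-KO replicates 3 or 5 and 2 without WT replicates 1 or 3. It was 2 with the identification number range as a covariate or with GC content and length trends removed, and 7 without the low-count filter.

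LRH-1-induced genes passed in 3 of 9 tested, all lower, beside 2.76% of all genes, with a median of −0.21. The HDL receptor gene Scarb1 fell from 260 ± 14.6 to 213 ± 17.6 CPM (adjusted p = 0.0308, edgeR) and Cbs, an enzyme of sulfur amino acid metabolism, from 181 ± 4.65 to 153 ± 10.6 CPM (adjusted p = 0.0416, edgeR). The number was 1 without WT replicates 3, 4 or 5 or Mir483Pat-KO replicates 2 or 3, and 0 without Mir483Pat-KO replicate 4.

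In the thyroid hormone axis 1 of 13 tested genes passed as lower and 1 as higher, beside 2.76% and 2.43% of all genes, and 10 of the 13 log2 fold changes were below 0, with a median of −0.15. Cpt1a, which admits fatty acids to mitochondria, measured 107 to 148 CPM in WT and 81.4 to 106 CPM in Mir483Pat-KO (log2 fold change −0.46 ± 0.09, adjusted p = 0.0102, edgeR). Slc16a10, a transporter of thyroid hormone and aromatic amino acids, rose from 77.0 ± 8.61 to 96.8 ± 9.55 CPM (adjusted p = 0.0408, edgeR), with 1 library inside the WT range. That call was lost without WT replicates 3, 4 or 5 or Mir483Pat-KO replicates 2, 3, 4 or 5, and with the identification number range as a covariate. Thrsp, a lipogenic thyroid hormone target, measured 0.503 to 5.31 CPM in WT and 0.383 to 3.2 CPM in Mir483Pat-KO (adjusted p = 0.157, edgeR), and the deiodinase gene Dio1 had 11 counts over the WT and 8 over the Mir483Pat-KO libraries and was not tested. The list shares Ttr with the hepatocyte markers. Without WT replicate 2 the number of lower genes was 2.

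Among ROR and clock genes 0 of 8 tested passed by edgeR, 2 of 8 had an unadjusted p under 0.05 and 1 passed by DESeq2. Over all genes 5.19% passed by edgeR, 3128 of 14098 had an unadjusted p under 0.05 and 8.23% passed by DESeq2, and the shares in this list were not far from these. Arntl, the clock activator that ROR alpha induces, measured 26.1 to 33.7 CPM in WT and 22.9 to 28.0 CPM in Mir483Pat-KO (log2 fold change −0.15, adjusted p = 0.358, edgeR). As lower, 2 genes of the list passed without Mir483Pat-KO replicate 1, 2 with the replicate block and 2 without the low-count filter.

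In the retinoid axis, which supplies the ligands of RXR and RAR, 2 of 8 tested genes passed as lower and 0 as higher, beside 2.76% and 2.43% of all genes, with a median of 0.01. Retsat, a retinol saturase, measured 41.8 to 45.5 CPM in WT and 31.1 to 34.6 CPM in Mir483Pat-KO (log2 fold change −0.40 ± 0.07, adjusted p = 0.00401, edgeR). Rbp4, the plasma carrier of retinol, measured 1363 to 1519 CPM in WT and 991 to 1200 CPM in Mir483Pat-KO (log2 fold change −0.42 ± 0.07, adjusted p = 0.0058, edgeR). The groups did not overlap for either gene.

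Of 39 other nuclear receptor genes, 25 were tested and 2 passed, both lower, beside 2.76% of all genes, with a median of −0.07. Nr2f6, an orphan receptor of the COUP-TF group, measured 25.7 to 29.1 CPM in WT and 18.2 to 22.1 CPM in Mir483Pat-KO (log2 fold change −0.46 ± 0.08, adjusted p = 0.00518, edgeR). Hnf4a, the receptor that specifies hepatocytes, measured 355 to 407 CPM in WT and 307 to 343 CPM in Mir483Pat-KO, with groups that did not overlap but an adjusted p of 0.054 (log2 fold change −0.24, edgeR). Ppara, the fatty acid receptor gene, measured 95 to 111 CPM and 79.6 to 104 CPM (log2 fold change −0.20, adjusted p = 0.137, edgeR). The number of lower genes in this list was 6 with the identification number range as a covariate, 4 under DESeq2 or the robust fit and 1 with GC content and length trends removed. As higher, 1 gene passed without WT replicate 2, 1 with the replicate block and 2 without the low-count filter.

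Coregulators, the cofactors that receptors recruit, passed in 1 of 19 tested, the 1 being higher, a share close to the 5.19% of all genes that passed in either direction. Nrip1, a corepressor of ligand-bound receptors, measured 23.2, 24.0, 26.8, 26.4 and 20.8 CPM in WT and 34.4, 31.8, 28.5, 27.0 and 31.5 CPM in Mir483Pat-KO. Every Mir483Pat-KO library lay above every WT library (log2 fold change 0.34 ± 0.09, adjusted p = 0.0416, edgeR). The call was lost when any of 9 of the 10 libraries was left out, WT replicate 3 being the exception, and with GC content and length trends removed. The coregulators had a median of 0.05, the highest of the 10 lists. With the lower range of identification numbers alone, no gene of these 10 lists passed in either direction by edgeR, in the fit with 23 genes passing of 14494.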

How the data were processed

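Liver polyA RNA of 10 female fetuses at E18.5 was compared, 5 Mir483Pat-KO against 5 WT, grouped by their labels. The authors extracted total RNA made TruSeq Stranded mRNA libraries, sequenced paired ends and used STAR to align to GRCm38 and count reads per gene. They deposited raw counts per Ensembl gene, with no normalization. The strand setting and the rule for reads in several genes are not given in the sources used here, and the submitters' processing notes name STAR and GRCm38. Totals were 10831350 to 14765880 counts per library, and floors for counts of 0 (3 counts) cover counting error only.

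The tests were run with edgeR 4.0.16 in R 4.3.3 (filterByExpr, TMM scaling, quasi-likelihood F-test on genotype without covariates), with Benjamini-Hochberg adjustment over 14098 genes. Levels are CPM on TMM-scaled library sizes, and log2 CPM used a prior count of 2. For marker sums a two-sided exact permutation test over all 252 arrangements was used. Nothing in the labels says more of the replicates than that they are separate fetuses of a group. Equal replicate numbers were not taken as pairs, and the check of pairing is given with the alternatives. No library was a repeat of another within counting noise.

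The members, the 10 pathway lists, the 9 marker lists and the tests were chosen with earlier results of these data known. Of the list names, 2 matched no gene. Genes withheld for evaluation count in the list totals but are not reported here. The genes named were the 9 receptors, up to 4 passing genes per list with the smallest p, 12 genes whatever their result, the 3 genes most like each receptor that passed, and those said to have been chosen after their values were seen. Gene models came from GENCODE M21 (GRCm38), and microRNAs and promoters from RefSeq tables (GRCm38.p6). Seed matches were searched in the longest annotated 3′ UTR. Protein sequences were not used here.

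Alternatives were RLE scaling, DESeq2 1.42.0, limma-voom (limma 3.58.1), the robust fit, the replicate block, dropping the low-count filter or asking for at least 10 counts per library, the identification number range (below or above 450) as a covariate, the lower range alone, removal of GC content and length trends, and each library left out in turn. On simulated data with 200 genes changed 2-fold among 13992, the test recovered 89.5%, and 4.28% of those passing had not been changed. The simulated counts followed the fitted model and held no GC trend and no shift of cell makeup. These rates therefore do not cover such effects or changes smaller than 2-fold. Figures used Python 3.11.15 and matplotlib 3.10.9.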

Additional observations from a re-analysis of the deposited data

Results flagged for a closer look

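The values of the 9 receptor genes were checked for a library far from the rest of its group, over 18 groups of 5 libraries, where chance alone flags about 1 group in 20. In WT replicate 1, Nr1h4 measured 62 CPM, while the other 4 WT libraries lay between 55.4 and 57 CPM. The gap took 0.761 of the group's range, above the critical value of 0.71. In WT replicate 2, Nr5a2 measured 39.0 CPM beside 27.8 to 30.8 CPM in the other 4, with a gap of 0.737 of the range. Without these libraries the log2 fold change was −0.14 for Nr1h4 (adjusted p = 0.367, edgeR) and 0.24 for Nr5a2 (adjusted p = 0.0898, edgeR), so that neither gene passed either way.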

How the results depend on the processing

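Nr1i3 was lower under all 20 alternatives and passed in 19 of them, with a log2 fold change of −1.05 to −0.78. Of the 9 receptor genes, 2 passed as lower, and this number became 1 under limma-voom, 1 with at least 10 counts in every library, 4 with the replicate block and 0 in the lower identification number range alone (6 libraries, 23 genes passing in all). It was 3 under DESeq2 and with the identification number range as a covariate (Nr1i3, Nr1h3 and Rxra, without Nr0b2) and 3 with no low-count filter (Nr1i3, Nr0b2 and Rxra). It ran from 1 to 2 when a library was left out, at 1 without WT replicates 3 or 4 or Mir483Pat-KO replicates 2, 4 or 5, and the 2 were Nr1i3 and Rxra without WT replicate 1 and Nr1i3 and Nr1h3 without Mir483Pat-KO replicate 3. None passed as higher under any alternative. The 4 genes under the replicate block were Nr1i3, Nr0b2, Nr1h3 and Rxra. Same-numbered libraries correlated at 0.0871 on average in their deviations from the group means, with 2 of 5 pairs over 0.1, beside −0.0217 for other pairs, and were not treated as pairs. The median receptor log2 fold change was −0.30 in the lower range alone. Rora turned to −0.085 with GC content and length trends removed, to −0.004 without WT replicate 5 and to −0.039 without Mir483Pat-KO replicate 3, over a range of −0.039 to 0.136 when a library was left out, and the cause was not tested. For Nr0b2 DESeq2 gave no adjusted p (unadjusted p = 0.000152), and it was not tested with at least 10 counts in every library. Depth limits Nr0b2 (4 to 35 counts per library), Cyp2b10 and Dio1.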
